A study of Mus musculus with 5 samples.

Results

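Klf2, Klf3, Klf4, Klf6 and Klf13 are 5 of the 28692 genes counted in the bone marrow libraries, and they were taken by name as the Krüppel-like factor genes to be followed across cell types and days. The libraries came from 5 young adult C57BL/6J mice, each injected through the tail vein with 1000 BCR-ABL1 pre-B acute lymphoblastic leukemia (ALL) cells, and the recipients had not been irradiated. One mouse was killed immediately after injection (day 0) and 1 each on days 3, 6, 9 and 12, so that the day 0 mouse also carried the injected cells and every day is a single animal. BCR-ABL1 is the fusion kinase that drives this leukemia. Marrow flushed from femurs and tibias was pooled with cells released from the crushed bones by collagenase, red cells were lysed, and the cells were frozen before libraries were made with 10x Genomics 3′ v2 chemistry.

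Krüppel-like factors are transcription factors with zinc fingers at the carboxyl end that bind GC-rich and CACCC sequences, and single members can act as activators or repressors depending on the partners they recruit. Klf2 is known for keeping lymphocytes quiescent and for controlling the genes by which T cells leave lymphoid organs, and it restrains inflammatory activation of myeloid cells. Klf4 promotes the monocyte fate in marrow, Klf6 is an early response gene that takes part in inflammatory activation of myeloid cells, Klf3 is a repressor that works through CtBP corepressors and is needed for normal B cell development, and Klf13 acts in T cells on the chemokine gene Ccl5.

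Barcodes with at least 500 unique molecular identifiers (UMIs, 1 per captured RNA molecule) numbered 5474 to 7604 per library, and 29679 of the 32135 were kept because mitochondrial genes made up no more than 10% of their UMIs. The libraries held 33425695 to 43554233 UMIs, and kept cells had a median of 3143 to 4397 UMIs. Cells were clustered without the genes described here, and 28953 were placed in classes that are written with the ending "-like" where their markers allowed a name and by their leading genes where they did not. Between 44 and 73 barcodes were shared by each pair of libraries, 0.749% to 1.24% of the smaller one, and list size alone would give 43.6 to 68.9. A cluster led by Myl10 drew 94.8% of its 134 barcodes from the day 3 library, so its values describe that library. The level of a gene is its summed UMIs divided by the summed UMIs of a class in a library, times 10000. It is given for classes with at least 20 cells, with exact Poisson 95% intervals that cover counting error only, and with 1 library per day there is no replicate of any day and no test between days.

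Since Klf2, Klf4 and Klf6 were lower on the same days, their promoters are shown as far as RefSeq gives them on GRCm38.p6, from 250 bases before to 50 bases after the start site. All 5 genes had an entry. Capitals mark matches, on either strand, to 6 short motifs, which were the AP-1 motif with the letters TGANTCA, a part of the cAMP response element with TGACG, the CACCC box with CCACCC, the GC box with GGGCGG, the CCAAT box named for its own letters, and the TATA box with TATAAA.
Klf2, chr8:72318812-72319111, plus strand: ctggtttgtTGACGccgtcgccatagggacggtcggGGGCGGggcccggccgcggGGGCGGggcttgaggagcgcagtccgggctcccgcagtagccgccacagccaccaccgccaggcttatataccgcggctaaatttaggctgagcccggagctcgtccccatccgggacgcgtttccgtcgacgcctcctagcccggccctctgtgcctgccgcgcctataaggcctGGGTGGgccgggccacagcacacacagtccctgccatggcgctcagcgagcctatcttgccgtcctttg
Klf4, chr4:55532426-55532725, minus strand: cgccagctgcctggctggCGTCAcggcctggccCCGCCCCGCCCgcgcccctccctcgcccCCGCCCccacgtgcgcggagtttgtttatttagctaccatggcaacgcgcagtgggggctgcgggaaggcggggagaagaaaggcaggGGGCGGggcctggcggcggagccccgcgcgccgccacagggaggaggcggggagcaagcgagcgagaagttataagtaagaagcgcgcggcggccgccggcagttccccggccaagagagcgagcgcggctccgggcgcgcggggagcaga
Klf6, chr13:5861239-5861538, plus strand: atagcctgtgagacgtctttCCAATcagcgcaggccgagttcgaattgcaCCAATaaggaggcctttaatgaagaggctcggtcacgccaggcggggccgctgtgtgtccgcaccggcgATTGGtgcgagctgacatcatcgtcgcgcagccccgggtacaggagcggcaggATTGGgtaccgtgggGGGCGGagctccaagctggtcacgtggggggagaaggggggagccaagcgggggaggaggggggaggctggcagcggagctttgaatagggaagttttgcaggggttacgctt

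In GENCODE vM21, on GRCm38, Klf2 lies at chr8:72319033-72321656, Klf3 at chr5:64803388-64832901 and Klf6 at chr13:5861482-5870394 on the plus strand, and Klf4 at chr4:55527143-55532466 and Klf13 at chr7:63886351-63938915 on the minus strand. The 3 sequences shared GC boxes, 2 in Klf2, 4 in Klf4 and 1 in Klf6, a motif that 35.7% of all 32851 mouse promoters of this length held. CCAAT, held by 37.4% of promoters, occurred 4 times in Klf6 and not in the windows of Klf2 and Klf4. Klf2 and Klf4 each held 1 TGACG, present in 20.8% of promoters, at positions -241 and -232 from the start site in the order of the genes, and Klf6 held none. A CACCC box, in 31.5% of promoters, was present once in Klf2, at position -19. The AP-1 motif, in 7.81% of promoters, and the TATA box, in 13.6%, were in none of the 5 windows. Klf3 held 6 GC boxes and 3 CACCC boxes, and Klf13 held 3 GC boxes, 2 CCAAT boxes and 1 CACCC box, each with 1 TGACG. The GC content was 69.3% for Klf2, 74.3% for Klf4, 63.0% for Klf6, 76.7% for Klf3 and 72% for Klf13, against a median of 52.7% over all promoters. These are matches of letters in a fixed window and say nothing of binding.

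Klf2 was found in every class measured, and its means were highest in the mature neutrophils with high Ccl6 and with high Cxcl2. In neutrophils with high Ccl6 its level was 27.80, 12.06, 11.11, 10.65 and 15.50 per 10000 UMIs from day 0 through to day 12, in the order 0, 3, 6, 9, 12. Mature neutrophils with high Cxcl2 followed with 25.21, 8.36, 8.07, 8.70 and 16.26, and their ranges over libraries overlapped. Nonclassical-monocyte-like cells came next, with a mean of 9.61 in 4 libraries, and mature neutrophils with high Retnlg had a mean of 9.31 in 5. Along the neutrophil lineage the level rose in every library from granulocyte-monocyte progenitor (GMP)-like cells, at 4.56, 0.866, 0.834, 0.984 and 2.21, through cycling precursors, at 9.69, 2.46, 2.18, 2.57 and 4.30, and noncycling precursors, at 11.58, 3.72, 3.6, 4.43 and 7.34, to mature cells. The day 3 Myl10 cluster had the lowest level, 0.375.

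Among lymphoid and monocytic cells Klf2 was ordered in the same direction, low in dividing or early cells and higher in later ones. B-like cells had 11.56, 6.90, 7.58, 7.23 and 9.78 per 10000, and the cluster marked by Ms4a1 and Vpreb3 had 11.86, 6.37, 6.57, 5.90 and 6.65. Cycling pro/pre-B-like cells had 2.58, 1.5, 1.78 and 1.32 at days 0 to 9, too few cells being left at day 12. T-like cells had 7.74, 4.42, 3.93, 3.72 and 4.64 and monocyte-like cells 10.27, 4.03, 3.88, 4.29 and 6.86, so these classes overlapped with the B lineage over days although day 0 was the highest library in each of them. Neighbours in the order of the 25 class means overlapped in range over libraries down to stem-and-multipotent-like cells, at a mean of 1.67, which did not overlap with basophil-like cells, at 0.515 in a single library.

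**Figure D1:**
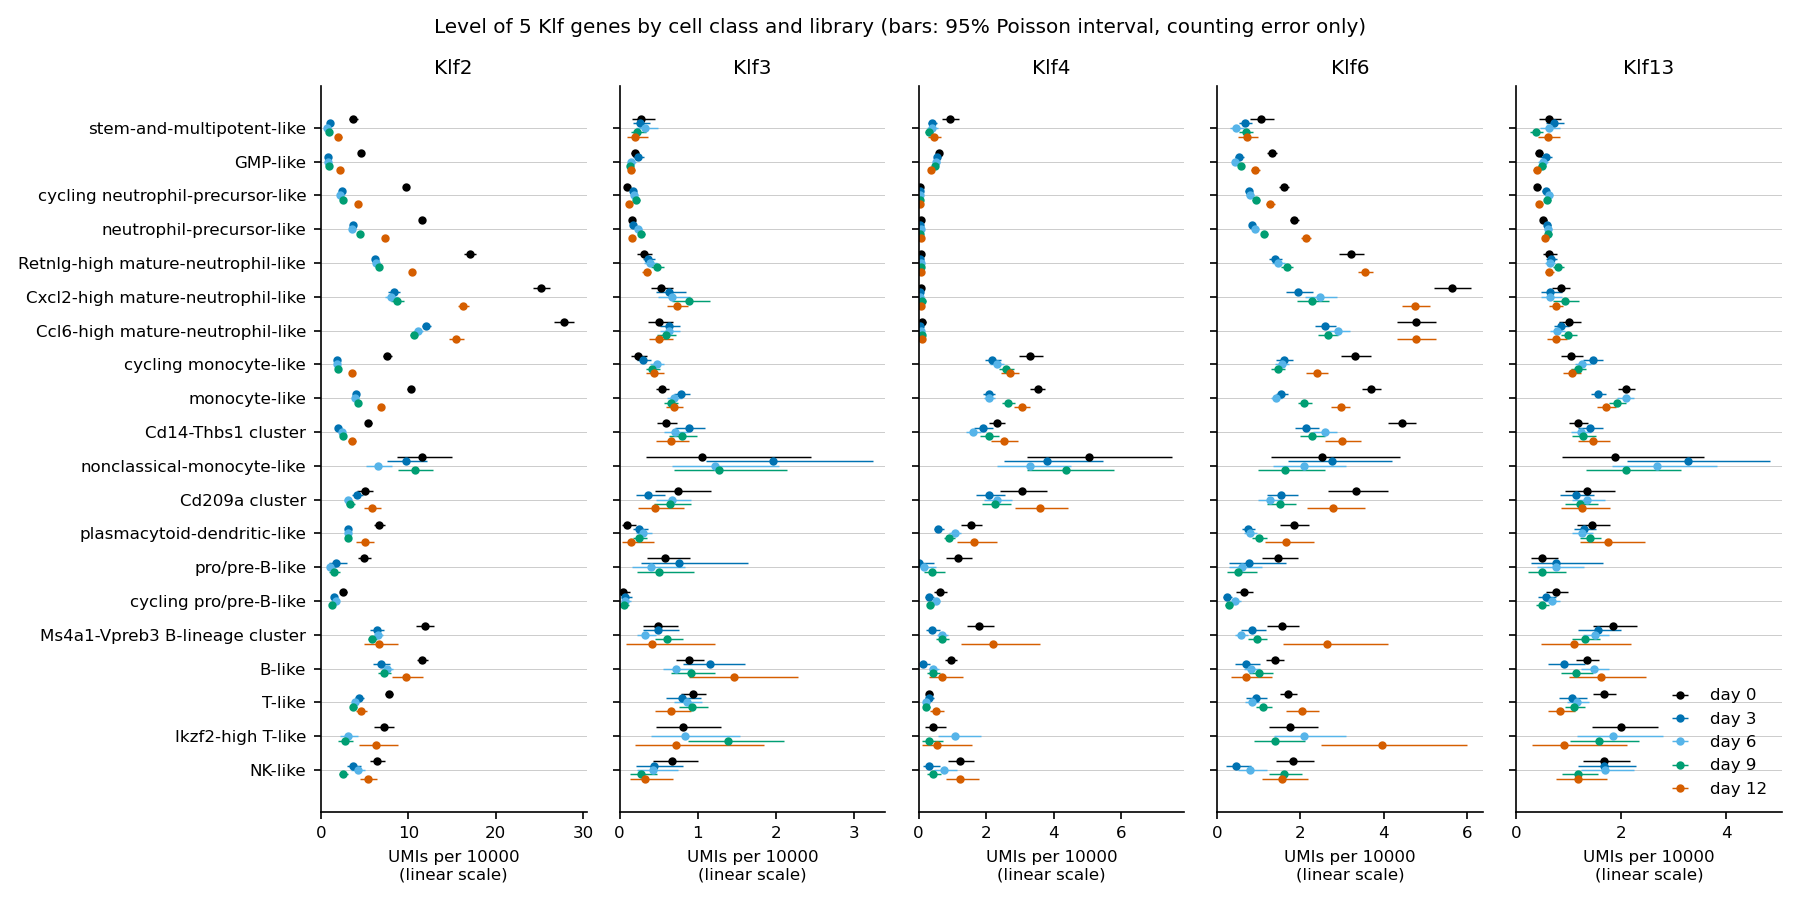
Level of each gene, in UMIs per 10000 on a linear axis that starts at 0 and differs between panels, in the 20 classes with at least 20 cells in 3 or more libraries. Points are libraries coloured by day and bars are 95% Poisson intervals, and for Klf2 the day 0 point lies farthest right in 19 of the 20 classes, the exception being the Cd209a cluster.

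Free RNA is caught in every droplet, and its part in this order was not tested beyond the values that follow. In barcodes with 1 to 100 UMIs, which hold no cell, Klf2 stood at 13.99, 5.75, 6.30, 5.85 and 10.61 per 10000 in the order of the days and so changed with the days as the cells did. Klf4 served as a limit, because the 5 neutrophil classes carried it at 0.0357 to 0.117 per 10000, or 4.25% to 13.8% of its level in free RNA. That this Klf4 was itself background was assumed and not tested. Klf2 in mature neutrophils with high Ccl6 was 146% to 210% of its free RNA level, above the level of the free RNA itself in each library. In GMP-like cells it was 32.6% of the free RNA level at day 0 and 20.8% at day 12, but 15.1%, 13.2% and 16.8% at days 3, 6 and 9. The 3 low values are close to the upper end of that limit, and in the day 3 Myl10 cluster the 6.52% lies within it. The neutrophil clusters had medians of 1888 to 10678 UMIs per barcode, the Myl10 cluster 19684, and GMP-like cells 13322.5 to 16266 by library. How the limit changes with depth was not tested, so it does not show that these Klf2 values are background.

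Klf6, which encodes an activator induced by many stimuli, was highest in mature neutrophils and in the monocyte lineage. Neutrophils with high Ccl6 had 4.77, 2.59, 2.91, 2.66 and 4.77 per 10000, and those with high Cxcl2 had 5.65, 1.95, 2.47, 2.29 and 4.76. Monocyte-like cells had 3.70, 1.54, 1.42, 2.1 and 2.97. Days 0 and 12 were the upper pair in each of the 3 classes and did not overlap with days 3, 6 and 9. T-like cells had 1.70, 0.918, 0.825, 1.11 and 2.03, the smaller class of Ikzf2-high T-like cells had a mean of 2.30 in 4 libraries, and cycling pro/pre-B-like cells were near the bottom at 0.631, 0.229, 0.433 and 0.279 up to day 9.

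Klf4 was highest in the monocyte classes and was not confined to them. The highest levels were those of nonclassical-monocyte-like cells, 5.03, 3.79, 3.30 and 4.36 at days 0, 3, 6 and 9 from only 20 to 44 cells a library, and of monocyte-like cells, 3.52, 2.08, 2.08, 2.65 and 3.05. Cycling monocyte-like cells, at 3.30, 2.19, 2.31, 2.59 and 2.69, differed from the noncycling ones by a mean log2 ratio of 0.02 ± 0.13 (SD, n = 5 libraries). T-like cells were far below, at 0.313, 0.301, 0.236, 0.221 and 0.517, and the neutrophil classes, whose levels set the limit given above, were lower still. The Cd209a cluster, with a mean of 2.67, lay beside the monocytes, and the Cd14-Thbs1 cluster followed with 2.09. Next came the Cxcl10 cluster, with a mean of 1.43 in 2 libraries. The Ms4a1-Vpreb3 cluster had a mean of 1.16, from 0.387 to 2.22 over libraries, and plasmacytoid-dendritic-like cells 1.15.

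Klf3 and Klf13 had their highest mean in the same class as Klf4, from only 48 UMIs of Klf3 and 88 of Klf13. For both genes its range over libraries overlapped with the next class. Klf3, the CtBP-dependent repressor, was highest in nonclassical-monocyte-like cells, from 1.05 to 1.96 per 10000, and next in stromal-like cells, present in 1 library only, and B-like cells, where it was 0.884, 1.16, 0.720, 0.909 and 1.46. In cycling pro/pre-B-like cells it was 0.0451 to 0.0735, based on only 26 UMIs in 4 libraries. Klf13 was highest in nonclassical-monocyte-like cells, from 1.89 to 3.27, and in monocyte-like cells, at 2.1, 1.56, 2.08, 1.92 and 1.71. Its lowest level with UMIs, 0.292, was that of the day 3 Myl10 cluster, and the 41 erythroid-like cells of day 9 had no UMI of Klf3 or Klf13, which allows a level of up to 0.351. A lncRNA gene, C230096K16Rik, overlaps Klf3 on the same strand in GENCODE vM21 and has no row of its own, so the annotation used for counting may have assigned its reads to Klf3.

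Between classes of the same library the 5 genes separated noncycling from cycling cells to different degrees. From cycling neutrophil precursors to mature neutrophils with high Ccl6, the mean log2 ratio over 5 libraries was 2.01 ± 0.34 (SD) for Klf2, 1.91 ± 0.36 for Klf3, 1.74 ± 0.18 for Klf6 and 0.75 ± 0.36 for Klf13. Klf2, Klf3 and Klf6 were at least 1.5 times higher in 5 of 5 libraries, as were 16.8% of all genes compared, and Klf13 in 4 of 5. Klf3 did not have a UMI in 10% of cells of either class in every library, here or in the B lineage below. Klf4 is left out here, because its levels in the neutrophil classes were the ones that set the limit above. These ratios set classes apart by stage as well as by division, and these cannot be told apart.

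Monocyte-like cells were above their cycling counterparts by 0.94 ± 0.29 for Klf2, 0.88 ± 0.38 for Klf3 and 0.64 ± 0.33 for Klf13 (mean log2 ratio, SD, n = 5 libraries), each higher in 5 of 5 libraries and by at least 1.5 times in 4 of 5. Of all genes compared 4.40% were that much higher in all 5. Klf6, at 0.16 ± 0.27, and Klf4 did not follow, since each was higher in only 3 of 5 libraries. In the B lineage, the Ms4a1-Vpreb3 cluster exceeded cycling pro/pre-B-like cells by 2.08 ± 0.14 for Klf2, 2.91 ± 0.58 for Klf3 and 1.33 ± 0.14 for Klf13 over the 4 libraries with enough cells, at least 1.5 times in 4 of 4, as did 9.75% of all genes. Klf6 was higher by 1.32 ± 0.67, past the fold in 3 of 4, and Klf4 by 0.82 ± 0.55, past it in 2 of 4. Klf3 in the cycling pro/pre-B-like cells was 11.9% to 18.2% of its free RNA level, at or close to the limit above, so that its ratio may rest on a level near background.

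All 5 genes were higher in monocyte-like than in GMP-like cells. The mean log2 ratio was 2.39 ± 0.45 for Klf4, 2.0 ± 0.37 for Klf3, 1.97 ± 0.30 for Klf13, 1.87 ± 0.46 for Klf2 and 1.68 ± 0.16 for Klf6 (SD, n = 5 libraries), at least 1.5 times in 5 of 5 libraries for each gene, against 19.3% of all genes. The Cd14-Thbs1 cluster had less Klf2 than monocyte-like cells in each library. Its levels were 5.41, 1.96, 2.37, 2.51 and 3.57 per 10000, a mean log2 ratio of -0.88 ± 0.13, at least 1.5 times lower in 5 of 5 libraries, as were 3.63% of all genes. Klf6 was not lower there, with a ratio of 0.35 ± 0.33, higher in 5 of 5 and past the fold in 1, whereas 6.7% of all genes were past it in each library. At days 9 and 12 the Klf6 ratios of 0.12 and 0.015 had counting intervals that included 0.

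T-like cells were compared with monocyte-like cells as a lymphoid and a myeloid class present in every library, and they do not stand for all lymphoid and myeloid cells, since the neutrophil classes had less Klf4 than T-like cells. Klf4 was lower in T-like cells by a mean log2 ratio of -3.11 ± 0.44 (SD, n = 5 libraries), or 8.66 times, and at least 1.5 times lower in 5 of 5 libraries, as were 28.1% of all genes, while 8.18% were that much higher. Klf6, at -0.82 ± 0.21, and Klf13, at -0.72 ± 0.28, were lower in 5 of 5 libraries and past the fold in 4 and 3. Klf2 differed by -0.21 ± 0.29 and Klf3 by 0.31 ± 0.36, each within the spread between libraries. When mitochondrial, ribosomal, hemoglobin and immunoglobulin genes, S100a8 and S100a9 were left out of the totals, every gene shifted up in T-like cells by a median of 0.43, so that Klf2 turned to 0.24, Klf3 rose to 0.75 and Klf6 and Klf13 came to -0.38 and -0.27.

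The comparison of each later day with day 0 asks how these genes differed over the days after injection. By the authors' flow cytometry, leukemia cells made up none or a minute share of the marrow up to day 9. At day 12 they made up a few percent. Over all cells, Klf2 stood at 10.24 per 10000 UMIs at day 0, 3.56 at day 3, 3.76 at day 6, 3.84 at day 9 and 6.95 at day 12. Klf6 stood at 2.37, 1.07, 1.17, 1.29 and 2.38, and Klf4 at 0.921, 0.554, 0.708, 0.688 and 0.645. The days 3, 6 and 9 lay close together for all 3 genes, and day 12 lay above them for Klf2 and Klf6. Klf3, at 0.354, 0.358, 0.404, 0.402 and 0.326, and Klf13, at 0.918, 0.826, 0.976, 0.888 and 0.730, kept nearly the same level. All 4 comparisons share the day 0 library, so they are not independent of each other, and a difference between days is also a difference between mice. The authors also ran quantitative PCR on selected genes, Klf2 among them, in sorted neutrophils from replicate mice per time point. They report that it upheld their finding of more underexpressed than overexpressed genes. Those measurements are not used here.

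**Figure D2:**
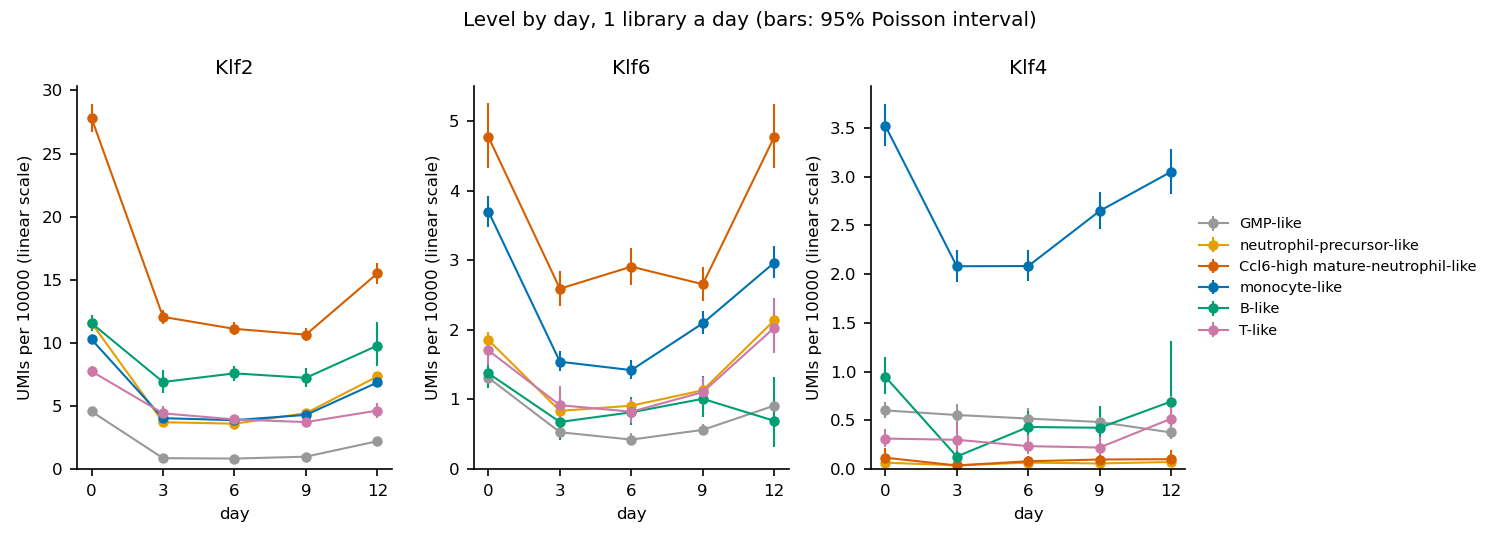
Level of Klf2, Klf6 and Klf4 by day in 6 classes, in UMIs per 10000 on linear axes from 0, with 95% Poisson intervals and 1 library a day. Klf2 in neutrophils with high Ccl6 falls from 27.80 at day 0 to between 10.65 and 12.06 at days 3 to 9 and stands at 15.50 at day 12.

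Klf2 was lower within nearly every class. At least 1.5 times lower than at day 0 were 17 of 19 classes at day 3, 19 of 20 at day 6, 19 of 20 at day 9 and 11 of 17 at day 12, and in no class was it that much higher. Of all gene and class pairs that reached detection, meaning that 10% or more of the cells held a UMI on either day, 10.6%, 9.54%, 11.2% and 10.0% were lower by this fold on days 3, 6, 9 and 12. The median log2 ratio over classes was -1.35, -1.27, -1.34 and -0.66 in the same order. A class can reach detection through the higher day alone, which favours changes in genes near that limit. Klf2 reached it in 76 of 76 comparisons. GMP-like cells had the lowest ratios, -2.40 (95% counting interval -2.64 to -2.17) at day 3 and -2.45 at day 6, a level 5.27 and 5.47 times higher at day 0, with the free RNA limit above.

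Myeloid classes well above that limit moved in the same direction. Klf2 was 3.12, 3.22, 2.61 and 1.58 times higher at day 0 than at days 3, 6, 9 and 12 in neutrophil precursors, and 2.55, 2.65, 2.39 and 1.5 times higher in monocyte-like cells, where the last value lies just short of the 1.5-fold threshold. T-like cells had log2 ratios of -0.81, -0.98, -1.06 and -0.74 and B-like cells -0.74, -0.61, -0.68 and -0.24. The classes not past the fold before day 12 were nonclassical-monocyte-like cells at days 3 and 9, the Cd209a cluster at day 3 and cycling pro/pre-B-like cells at day 6. Each of these still lay below 0, and their ratios ranged from -0.10 to -0.54.

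Klf6 was at least 1.5 times lower in 18 of 19 classes at day 3, 17 of 20 at day 6, 17 of 20 at day 9 and 1 of 17 at day 12. Its median log2 ratio was -1.10, -1.11, -0.83 and -0.24. In monocyte-like cells the ratio was -1.26 (95% counting interval -1.42 to -1.10) at day 3, -1.38 at day 6, -0.82 at day 9 and -0.32 at day 12. Neutrophils with high Ccl6 had -0.88, -0.71, -0.84 and 0.00, so that days 0 and 12 could not be separated there. The 1 class still past the fold at day 12 was B-like, at -0.99, and the Ms4a1-Vpreb3 cluster, from 29 cells, and the Ikzf2-high T-like cells, from 27, were higher by that fold.

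Klf4 reached detection in fewer classes, and 9 of 13 were at least 1.5 times lower at day 3, 7 of 14 at day 6, 7 of 13 at day 9 and 2 of 12 at day 12. It was higher by the fold in 0, 1, 0 and 1 of these classes. With no detection limit, 12 of 19, 9 of 20, 7 of 20 and 2 of 17 classes were lower and 0, 1, 0 and 1 higher. In monocyte-like cells, its main site, the log2 ratio was -0.76 (95% counting interval -0.90 to -0.61) at day 3, -0.76 at day 6, -0.41 at day 9 and -0.21 at day 12. Larger ratios came from classes with little Klf4, such as B-like cells at day 3, at -2.88 with a counting interval of -4.78 to -1.48. In pro/pre-B-like cells no UMI was seen at day 3 in 23 cells, which allows a level of up to 0.378 and makes it at least 3.06 times lower than the 1.16 of day 0. GMP-like cells, which carry 0.376 to 0.602 per 10000, passed the fold at day 12 only, at -0.68, and turned to 0.11 when cells were clustered at a resolution of 0.6 in place of 1.

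**Figure D3:**
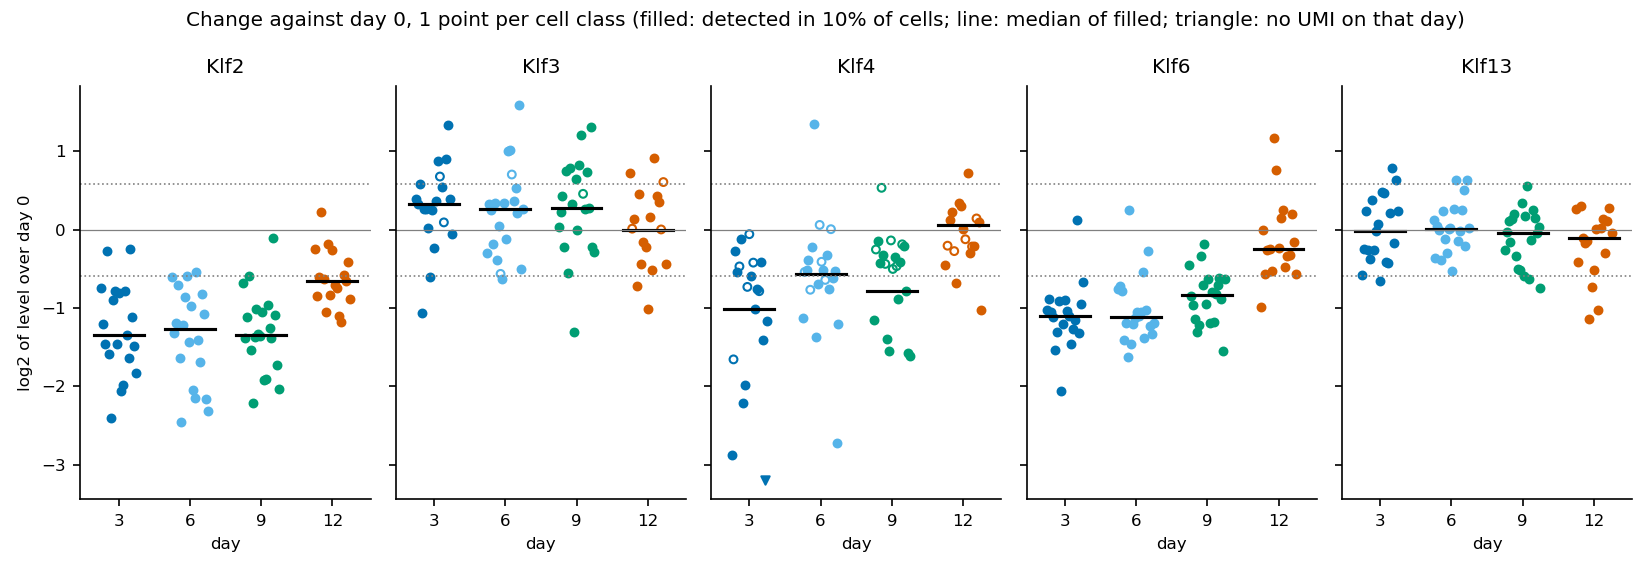
Log2 ratio of the level on each later day over day 0, with 1 point per class, the median as a black line and dotted lines at 1.5-fold. Open points are classes below 10% detection, the triangle marks Klf4 in pro/pre-B-like cells with no UMI at day 3, and the medians of Klf2 lie at -1.35, -1.27, -1.34 and -0.66 while those of Klf13 lie between -0.11 and 0.01.

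Klf3 and Klf13 did not share this course. Klf3 was lower by the fold in 2 of 17, 1 of 18, 1 of 19 and 2 of 14 detected classes at days 3, 6, 9 and 12 and higher in 3, 3, 7 and 2 of them, where 16.6%, 16.8%, 15.9% and 14.2% of all gene and class pairs were higher. In cycling neutrophil precursors it was 0.0927 at day 0 and 0.171, 0.189, 0.215 and 0.125 later, with ratios of 0.88, 1.02 and 1.21 at days 3, 6 and 9, from 45 UMIs at day 0. Klf3 was also higher in plasmacytoid-dendritic-like cells at days 3, 6 and 9, at 1.34, 1.60 and 1.31 from 6 UMIs at day 0, and lower in NK-like cells on all 4 days, from 7 to 12 UMIs against 23. The NK-like ratio at day 3 turned to 0.11 with cells thinned to 1000 UMIs, and against day 12 the ratios at days 3 and 6 were 0.41 and 0.38. Klf13 was lower in 1, 0, 3 and 3 classes and higher in 2, 2, 0 and 0 of 19, 20, 20 and 17. Klf3 lay near the share of all genes in either direction, apart from day 9, when its 7 of 19 higher classes included 4 neutrophil classes. Within the 5 neutrophil classes 5.73% to 23.1% of all genes were higher by the fold at day 9. Klf13 was past the fold in few classes either way. Its 0 higher classes at days 9 and 12 and its 0 lower classes at day 6 lay below the shares of all genes. T-like cells were the class in which Klf13 fell past the fold more than once, from 1.67 at day 0 to 1.06 at day 3, 1.11 at day 9 and 0.824 at day 12, and their 1.16 at day 6 lay short of it.

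Day 12 against day 9, which does not use the day 0 library, showed a difference in the other direction. Klf2 was at least 1.5 times higher at day 12 in 12 of 17 classes, Klf6 in 11 of 17 and Klf4 in 7 of 11, and none of the 3 was that much lower in any detected class. Of all gene and class pairs 12.0% were higher and 12.8% lower. The median log2 ratio was 0.73 for Klf2 and 0.73 for Klf6, both detected in all 17 classes. For Klf4 it was 0.66 over the 11 detected classes, which a class can join through the higher day alone. Over all 17 classes the median of Klf4 was 0.33, with 8 classes higher by the fold and 1 lower. Klf3, higher in 1 and lower in 4 of 17, and Klf13, higher in 1 and lower in 1 of 17, did not move with them. Set against day 12 in place of day 0, Klf2 at days 3, 6 and 9 was below in 50 of 50 classes by day, by the fold in 34, and Klf6 was below in 47 of 50, by the fold in 38. Of all gene and class pairs 11.4%, 11.7% and 12.0% were that much lower than at day 12 on days 3, 6 and 9. The low level at days 3 to 9 thus did not rest on the day 0 library alone.

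The immediate-early genes, which respond within minutes to signals and to the handling of cells, moved on the same days. Their list of 16 held AP-1 subunits such as Fos and Jun, the phosphatase gene Dusp1, the zinc finger gene Egr1 and others known to rise when tissue is dissociated. Of their gene and class pairs, 72%, 72.4%, 70.2% and 35.7% were at least 1.5 times lower than day 0 at days 3, 6, 9 and 12, with medians of -0.92, -0.90, -0.93 and -0.40, and 39.9% were higher at day 12 than at day 9. Over all cells Fos stood at 12.8, 5.24, 6.10, 6.02 and 10.6 per 10000, Dusp1 at 7.17, 2.50, 3.31, 2.96 and 7.37 and Atf3 at 1.36, 0.218, 0.264, 0.273 and 0.613. Not all members followed, since the heat-shock gene Hspa1a, at 0.170, 0.282, 0.124, 0.270 and 0.119, was highest at day 3. Btg2, Nr4a1 and Socs3 were lowest at day 12, at 1.42, 0.237 and 0.0955, against 1.97, 0.415 and 0.191 at day 0. Jun was still lower by the fold in 11 of 17 classes at day 12. The mice were killed on different days after injection and each day is 1 library, so the handling of marrow before freezing cannot be told apart from the day. The labels and methods do not say whether the libraries were prepared together. The part of handling in the course of Klf2, Klf4 and Klf6 was not tested.

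**Figure D4:**
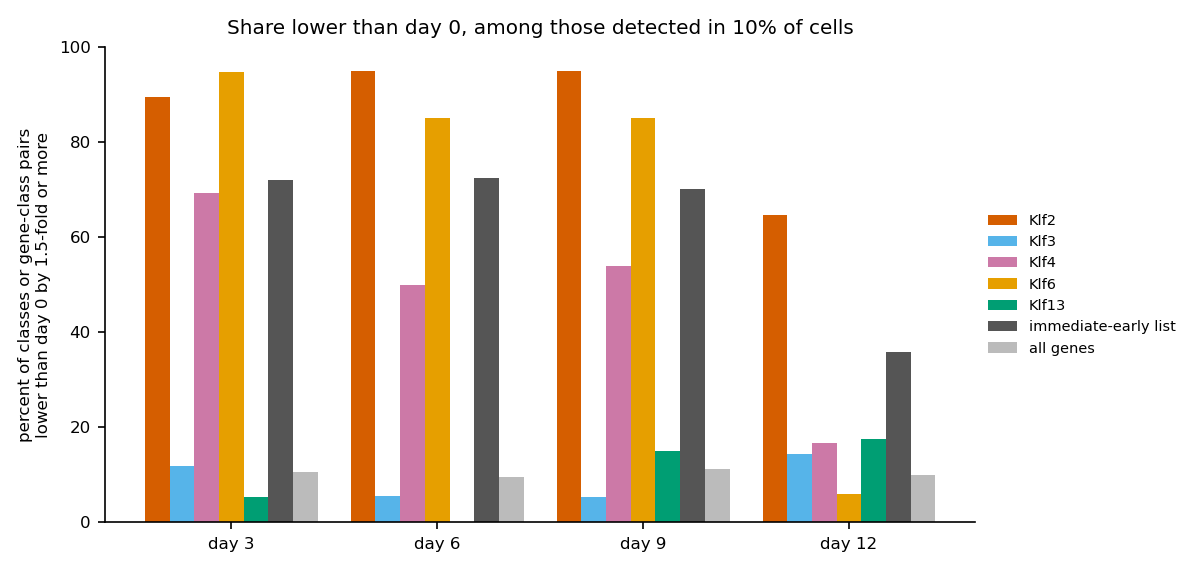
Percent of classes in which each gene was at least 1.5 times lower than at day 0, beside the same percent over gene and class pairs of the immediate-early list and of all genes, all with a UMI in 10% of cells on either day. Klf2 and the immediate-early list stand far above the 9.54% to 11.2% of all genes on each day, and Klf6 does at days 3, 6 and 9.

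The numbers of cells in many classes differed between days. There were 685, 141, 421, 294 and 86 B-like cells in the libraries of days 0 to 12, and the T-like class held 587, 177, 311, 349 and 189. Mature neutrophils with high Cxcl2 numbered 557, 211, 244, 229 and 727, and the Cd14-Thbs1 cluster 232, 126, 175, 153 and 96. Levels are given within classes for this reason, and Klf2 was lower at days 3, 6 and 9 than at day 0 inside each of these 4 classes. It was 5.41 at day 0 against 1.96 to 2.51 in the Cd14-Thbs1 cluster, and 25.21 against 8.07 to 8.70 in the Cxcl2-high neutrophils.

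Of the 12 other Klf genes, 6 reached detection in some class at day 3, and Klf15 and Klf17 had no UMI in any cell. Klf9, a glucocorticoid-responsive factor, was at least 1.5 times lower in 6 of 7, 6 of 7, 5 of 7 and 3 of 5 classes at days 3, 6, 9 and 12, and its level over all cells was 0.154, 0.0706, 0.0664, 0.0710 and 0.0925. Klf11, a TGF-beta-inducible repressor, was lower in 4 of 5, 4 of 4, 4 of 4 and 1 of 5, and its level over all cells was 0.107, 0.0531, 0.0630, 0.0492 and 0.0996. Of 19 classes compared at day 3, only 7 reached detection for Klf9 and 5 for Klf11. They could reach it through the higher day 0 library alone, so these counts of lower classes are partly set by the selection. Klf10, which is also induced by TGF-beta, was lower in 3 of 13, 3 of 13, 3 of 14 and 0 of 9. Klf7 was lower in 1 of 10, 0 of 13, 0 of 12 and 0 of 8. Over all cells Klf9 and Klf11 were thus lower at days 3 to 9 than at day 0, while the counts of Klf7 lay near or below the share of all genes.

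Genes known to act upstream of Klf2 and Klf4 gave no such course. Of the pairs of the 8 genes for the MEKK3, MEK5 and ERK5 kinases and the MEF2 and FOXO factors, 13.4%, 5.33%, 11.3% and 15.1% were lower and 8.96%, 16%, 11.3% and 13.2% higher at days 3, 6, 9 and 12. Over all genes 10.6%, 9.54%, 11.2% and 10.0% were lower and 16.6%, 16.8%, 15.9% and 14.2% higher. The lower share was thus above that of all genes at days 3 and 12 and below it at day 6. The higher share was below that of all genes on each day. Mef2c, a MEF2 factor that drives Klf2 in endothelium, passed the fold downward in 1 of 13, 1 of 13, 1 of 14 and 1 of 10 classes. Of corepressor and ubiquitin ligase genes 8.33%, 7.04%, 7.04% and 9.09% of pairs were lower and 15.3%, 16.9%, 19.7% and 12.7% higher, and the corepressor Ctbp1, with which Klf3 works, was higher in 4 of 18, 4 of 18, 3 of 18 and 2 of 15 classes. These counts concern RNA only, whereas the kinases are controlled largely by phosphorylation.

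Genes known as targets of these factors were mixed. Over 11 genes, 34.5%, 27.3%, 28.6% and 23% of pairs were at least 1.5 times lower and 10.0%, 16.5%, 12.6% and 6.00% higher. Cd14, the endotoxin coreceptor, was lower in 10 of 13, 11 of 13, 11 of 13 and 3 of 13 classes, and Cdkn1a, which encodes the cell cycle inhibitor p21, in 9 of 12, 10 of 13, 10 of 13 and 3 of 10. S1pr1, the receptor for lymphocyte exit that Klf2 activates, was detected in 5 to 7 classes and lower in 1, 1, 2 and 2 and higher in 1, 2, 0 and 0 of them, with a level over all cells of 0.181, 0.0703, 0.139, 0.0983 and 0.0468. Ccl5, which Klf13 activates in T cells, was lower in 14 of 18 classes at day 3 and in 3 of 19, 4 of 20 and 7 of 17 later, and higher in 2, 2, 4 and 1. It was detected in classes other than T-like and NK-like cells as well, and the part of free RNA in them was not tested.

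Likeness to each gene was measured as Pearson's r of log2 level over 102 classes by library from 25 classes, among 6769 genes, and these points share libraries, depth and free RNA. Among the nearest to Klf2 were Ier5 (r = 0.80), Stk17b (0.75), Btg2 (0.71) and Cd52 (0.70). Klf6 was nearest to immediate-early genes and a nuclear lncRNA, Dusp1 (0.85), Fos (0.82), Neat1 (0.81), Ier2 (0.80) and Zfp36 (0.78). Klf4 was nearest to Ehd4 (0.87), Tmem109 (0.86), Arl6ip5 (0.85), Cd48 (0.84) and Rassf4 (0.84), of which only Rassf4 was also among the nearest 5 with a pseudocount of 1. Klf3 was nearest to Msn (0.77), Shisa5 (0.76), H2-D1 (0.75), Ssh2 (0.74) and Ankrd44 (0.73), and Klf13 to Msn (0.83), Tapbp (0.81), Dock2 (0.80), Use1 (0.80) and B2m (0.79). Btg2 for Klf2, Ankrd44 for Klf3, and Tapbp and Dock2 for Klf13 were likewise not among the nearest 5 with a pseudocount of 1. Msn, which encodes the cytoskeletal linker moesin, stood first for both Klf3 and Klf13. Among the 5 genes themselves r was 0.67 for Klf3 with Klf13, 0.66 for Klf2 with Klf6, 0.64 for Klf4 with Klf13 and -0.02 for Klf2 with Klf4.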

How the data were processed

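The authors made UMI counts with Cell Ranger on mm10, named in the submitters' processing notes, and deposited the raw counts per gene and barcode, empty droplets included. The annotation release is not given in the sources used here. Counts were used as deposited. Barcodes with at least 500 UMIs and at most 10% mitochondrial UMIs were clustered with leidenalg 0.10.2 (resolution 1, seed 1, Python 3.11.15) without the genes reported, mixed clusters a second time, some of them chosen after seeing the data, and named from markers. Scrublet in scanpy 1.11.5 called 2.77% of barcodes at day 0 but 0.0132% to 0.123% elsewhere, so it did not work there, and no doublets were removed in the main values. The fold call and its interval were tested on simulated data.

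Ratios used the 1.5-fold threshold, 20 cells per class and library and detection of a UMI by 10% or more of the cells in one group or the other, and likeness a pseudocount of 0.1. All 5 genes are reported, other genes were named from lists where they passed the fold in most classes or days, others only to show the lists' range, and likeness by the 5 highest r, with 2 of the genes so chosen not reported here. The members and lists were chosen with earlier results of these data known. Gene positions came from GENCODE vM21. With 1 library per day no p-value was computed.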

Additional observations from a re-analysis of the deposited data

How the results depend on the processing

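In comparisons of a class and later day with day 0, Klf2 was lower past the fold in 66 of 76 and Klf6 in 53 of 76, and over all alternatives run, some with fewer comparisons, in 44 to 68 and 33 to 53. At a 2-fold threshold Klf6 was lower in 33 and higher in 1, Klf3 lower in 3 and higher in 6, Klf13 lower in 2 and higher in 0, and Klf4 higher in 1. With 50 cells needed, Klf13 was lower in 4 and higher in 1, Klf3 lower in 3, Klf4 higher in 1 and Klf6 in 0. With cells thinned to 1000 UMIs, Klf13 was lower in 13 and higher in 2, Klf3 lower in 0 and higher in 3, and Klf2, Klf4 and Klf6 higher in 1, 0 and 1. Thinning also turned the log2 ratio of Klf13 in the Ms4a1-Vpreb3 cluster at day 12 to 0.39, of Klf3 in NK-like cells at day 3 to 0.11 and of Klf2 in the Cd209a cluster at day 9 to 0.0011. Klf4 was higher in 1 with Scrublet calls removed, with no mitochondrial limit, at a resolution of 0.6 and without day 12. Klf6 was higher in 0 without day 12 and with a mitochondrial limit of 3 median absolute deviations. Klf13 was higher in 2 at 1000 UMIs or more and in 1 at a resolution of 0.6, and lower in 4 without day 12. At a resolution of 0.6, Klf4 in GMP-like cells at day 12 turned to 0.11. Against day 12, ratios turned for Klf13 in T-like cells at days 3 and 9 (0.36 and 0.42), Klf3 in NK-like cells at days 3 and 6 (0.41 and 0.38) and in cycling monocyte-like cells at day 9 (-0.080), and Klf6 in B-like cells at day 6 (0.23). The day 3 ratio of Klf13 for pro/pre-B-like cells turned to -0.67 once the Myl10 cluster was joined to them. Without the abundant gene groups, T-like over monocyte-like was 0.24 for Klf2, 0.75 for Klf3, -2.67 for Klf4, -0.38 for Klf6 and -0.27 for Klf13. Leaving out each library in turn, it ranged from -0.29 to -0.12 for Klf2, 0.19 to 0.40 for Klf3, -3.25 to -3.0 for Klf4, -0.89 to -0.75 for Klf6 and -0.81 to -0.63 for Klf13. The causes were not tested. The alternative of removing the highest 5% of doublet scores was chosen after seeing the data. No paired analysis was possible because each day is 1 library and no test was run. Depth limits classes with few UMIs, such as NK-like and pro/pre-B-like cells.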
